A study of Drosophila melanogaster with 2 samples.

Results

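Chromatin immunoprecipitation followed by sequencing recovered 1763 peaks of the tagged protein rib whose summit lay within 500 bp of annotated transcription start sites (TSSs) of exactly 1 protein-coding gene. They were 38.3% of the 4606 peaks in the list made from the 2 replicates together (95% exact interval 36.9% to 39.7%) and lay at 1419 genes. A further 2211 peaks had no TSS of a protein-coding gene in that distance, and 632 had TSSs of several genes. The material was whole Drosophila melanogaster embryos 0 to 24 h old from a strain named rib-GFP, with an insertion targeting rib. It expressed a fusion of rib with eGFP, a green fluorescent protein, and an antibody to GFP was used for the precipitation, while another label gives rib as the antibody's target. Chromatin was sonicated to 200 to 800 bp, and there was 1 group of 2 biological replicates with no group to compare it with. The labels name a possible control experiment, which was not used here. Whole embryos mix many cell types, so a weak peak in many cells and a strong peak in few cannot be told apart. Nothing in the lists gives the number of reads, so depth is unknown, and every interval covers the counting of peaks or genes only and takes them as independent.

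A TSS was each distinct 5′ end of an annotated transcript of the gene. A summit was upstream when it lay before its nearest TSS in the direction of transcription, and downstream when it lay on it or after it. The first TSS is the most 5′ one of a gene, and internal TSSs are all later ones. Signal is the strength that the peak caller gave each peak. Its scaling is not stated, so levels are compared only within 1 list.

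Ribbon, the product of rib, is a transcription factor of the BTB family, whose members pair with each other through the BTB domain. Its loss leaves the embryo's tracheal tubes and salivary glands poorly shaped. Fly promoters come in broad kinds. Many genes used in every cell carry the DNA replication-related element (DRE), the site of the factor DREF, or the Ohler motifs. Many developmental genes carry sites of GAGA factor, itself a BTB protein encoded by Trl, together with an initiator, a downstream promoter element or a TATA box. Genes with several TSSs can use a different promoter in each tissue.

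A few sequences are shown first because the results below return to them. They are of the strongest upstream summits, of upstream sites with DNA repeats of GA or with the DRE, and of downstream summits. All but those of the strongest summits were picked for holding a given word, so they are examples and show no difference between groups. Sequences are from the Release 6 assembly (dm6), printed 5′ to 3′ on the coding strand of the gene, 60 bases upstream and 30 bases downstream, with the summit at the centre. First come 4 of the 8 strongest upstream summits, with runs of 6 or more A or T in capitals. Their signals were 1503, 1342, 907 and 713.
Ugalt, chrX:2703863-2703922, minus strand: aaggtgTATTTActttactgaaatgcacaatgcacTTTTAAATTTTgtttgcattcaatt
CG14100, chr3L:19590581-19590640, minus strand: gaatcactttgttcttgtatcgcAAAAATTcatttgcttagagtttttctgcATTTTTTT
ph-p, chrX:2137317-2137376, minus strand: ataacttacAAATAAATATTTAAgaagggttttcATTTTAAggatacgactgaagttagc
CG18549, chr3R:12449147-12449206, plus strand: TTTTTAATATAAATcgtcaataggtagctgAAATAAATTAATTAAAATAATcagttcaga

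The 7-base word with the largest excess at upstream summits was CTCTCTC, read on either strand, and 3 of the strongest upstream peaks outside exons that held it are shown with it in capitals. All 3 lay at internal TSSs. Hnf4 encodes a nuclear receptor of metabolism (signal 198), pum an RNA-binding repressor of translation (153) and pnt an ETS factor downstream of receptor tyrosine kinases (135).
Hnf4, chr2L:8692643-8692702, minus strand: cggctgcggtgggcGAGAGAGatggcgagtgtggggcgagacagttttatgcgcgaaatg
pum, chr3R:9227039-9227098, minus strand: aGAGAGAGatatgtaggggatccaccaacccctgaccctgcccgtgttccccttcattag
pnt, chr3R:23295486-23295545, minus strand: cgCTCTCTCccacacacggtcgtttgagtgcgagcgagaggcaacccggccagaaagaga

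The DRE, in capitals, stands in the next 3, at Cat (catalase, signal 96.9), su(w[a]) (a splicing regulator, 94.9) and EMC4 (a subunit of the ER membrane complex, 93.8). Their summits lay 41, 68 and 49 bp upstream of the TSS. The peak at su(w[a]) overlapped no ranked region of replicate 2.
Cat, chr3L:18822533-18822592, plus strand: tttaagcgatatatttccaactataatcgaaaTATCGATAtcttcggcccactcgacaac
su(w[a]), chrX:1033218-1033277, plus strand: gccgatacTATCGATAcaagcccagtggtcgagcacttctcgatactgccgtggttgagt
EMC4, chr3L:22868263-22868322, minus strand: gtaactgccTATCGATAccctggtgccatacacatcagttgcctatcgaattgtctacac

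Downstream, the leading words were CACACAC and GCGAAAA. Capitals mark CACACAC, or its complement, at Hrb27C (an hnRNP, signal 148) and Reph (132). They mark GCGAAAA, or its complement, at CG5455 (155), sd (the TEAD partner of Yorkie in growth control, 154) and PRL-1 (a phosphatase, 128).
Hrb27C, chr2L:6921268-6921297, plus strand: acggccaactcatgcactCACACACgccag
Reph, chr2L:3804008-3804037, plus strand: tgatgtgtgcaaGTGTGTGTGggcacgtag
CG5455, chr3R:26461559-26461588, plus strand: acgcgaTTTTCGCttcgctcctctcggatt
sd, chrX:15812364-15812393, plus strand: TTTTCGCagtgtttccgcgatttttcgttg
PRL-1, chr2L:16256008-16256037, minus strand: tttgctgttatctcgaaTTTTCGCattttt

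Summits gathered close to the TSS on both sides, and more of them lay upstream than the sequence available there. Of the 1763, 981 were upstream and 782 downstream, so that 55.6% were upstream (exact interval 53.3% to 58.0%), against 45.2% of the bases at which a summit would have counted. The median upstream summit lay at −125 bp and the median downstream summit at 76 bp. Per megabase of such sequence there were 162 upstream summits and 107 downstream. The densest 50 bp were the 50 from the TSS onward, with 262 summits or 365 per Mb, and the 50 bp before it held 226 or 321 per Mb. Downstream the density fell off within 150 bp, to 76.0 per Mb at 150 to 199 bp, while upstream it was still 238 per Mb at 151 to 200 bp.

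**Figure D1:**
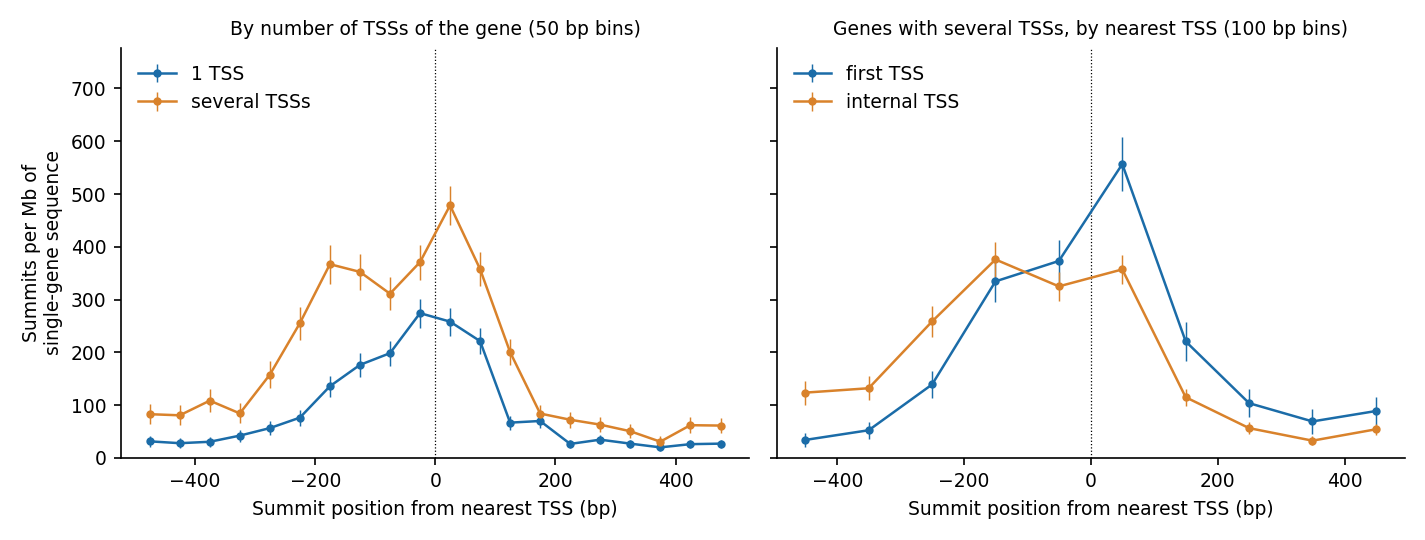
Summits per megabase of sequence in which a summit counts as single-gene, by position from the nearest TSS (bp, negative upstream), with bars of 1 counting SD. Left, genes with 1 TSS and with several TSSs in bins of 50 bp; right, the first and the internal TSSs of genes with several, in bins of 100 bp. Genes with several TSSs have a shoulder near −175 bp, and first TSSs have their highest bin at 0 to 99 bp.

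Most upstream summits, 523 of 981, lay in intergenic sequence and 364 in introns, while 601 of the 782 downstream summits lay in 5′ UTRs. The share upstream was 55.3% in the list of replicate 1 (699 of 1263 such peaks) and 67.3% in that of replicate 2 (543 of 807). The 59 summits in the last 50 bp inside the distance limit had a median signal of 88.5, and the 59 in the 50 bp beyond it had 99.1.

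Upstream peaks were stronger and were found in both replicates more often. Their median signal was 100.6 (quartiles 78.9 and 147), against 89.5 (73.8 and 116) downstream. Of upstream peaks 54.6% were above the median of all 1763, and of downstream peaks 44.1%, a difference of 10.5 percentage points (Newcombe interval 5.83 to 15.1). A thresholded peak of both replicates was overlapped by 404 of 981 upstream peaks (41.2%) and by 204 of 782 downstream peaks (26.1%), a difference of 15.1 points (10.7 to 19.4). Over all 4606 peaks that share was 34.3%, and over the 1763 it was 34.5%. The gap came with replicate 2, whose list held 52.0% of upstream and 34.1% of downstream peaks. The list of replicate 1 held 67.7% and 65.3%, a difference of 2.34 points (−2.08 to 6.78). Between the ranked lists, the median log2 ratio of signal in replicate 1 over replicate 2 was 0.47 upstream and 0.70 downstream, where only the gap between the sides can be read because each list has its own scale. No thresholded peak of either replicate was overlapped by 419 of the 1763 peaks (23.8%) and by 1252 of all 4606 (27.2%). That share was 21.5% upstream and 26.6% downstream.

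The sides differed chiefly among the strongest peaks. When the 1763 were divided into 5 quintiles by signal, the lower 3 were split almost evenly, at 49.3%, 51.1% and 49.6% upstream. The strongest quintile, with signals from 144 to 1503, held 257 upstream and 96 downstream peaks, or 72.8% upstream. Within that quintile 93.8% of upstream peaks (exact interval 90.1% to 96.4%) and 85.4% of downstream peaks (76.7% to 91.8%) were in both replicates. In the next quintile the shares were 54.4% and 50.3%. In the third quintile they were 13.1% upstream and 10.1% downstream, in the second 3.33% and 1.74%, and in the weakest 16.1% and 12.3%. They thus did not fall steadily with signal. Between peaks of like strength the sides therefore differed less than the 15.1 points over all peaks. This division was chosen after the values were seen.

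The strongest upstream summits were richer in A and T than the weaker ones. Within 50 bp of the summit, GC content in the strongest quintile averaged 37.0% ± 11.9 upstream (SD, 257 peaks) and 47.2% ± 9.10 downstream (96 peaks). In the other quintiles it averaged 45.6% ± 10.7 upstream (724 peaks) and 48.1% ± 7.95 downstream (686 peaks). At the same positions from TSSs without a peak it averaged 39.8% upstream and 44.2% downstream. Of the strongest quintile upstream, 130 of 257 (50.6%) had GC content under 35%, against 136 of 724 (18.8%) of the weaker upstream peaks, and 11 of 96 (11.5%) in the strongest quintile downstream. The difference stood at each kind of TSS. In the strongest quintile upstream the share under 35% was 52.4% at the only TSS of a gene, 57.1% at first TSSs and 43.8% at internal ones, while in the other quintiles upstream it was 24.0%, 17.0% and 15.3%.

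Each replicate's own list gave the same order upstream, where 46.7% of the strongest quintile and 17.2% of the rest had GC content under 35% in replicate 1, and 66.7% and 31.1% in replicate 2. Downstream these shares were 14.1% and 4.46% in replicate 1. In replicate 2 they were 45.8% and 7.92%, where the strongest quintile held 24 downstream peaks. Upstream peaks found in replicate 1 alone had a mean GC content of 48.3% ± 9.83 (SD, 260 peaks), and those found in replicate 2 alone 39.9% ± 10.8 (106 peaks). The part of base composition in the yield of either library was not tested. Strong A and T rich summits were not limited to single-gene promoters: 39.3% of the 377 in the strongest quintile of the whole list with no TSS nearby and 62.2% of the 193 near TSSs of several genes had GC content under 35%.

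**Figure D2:**
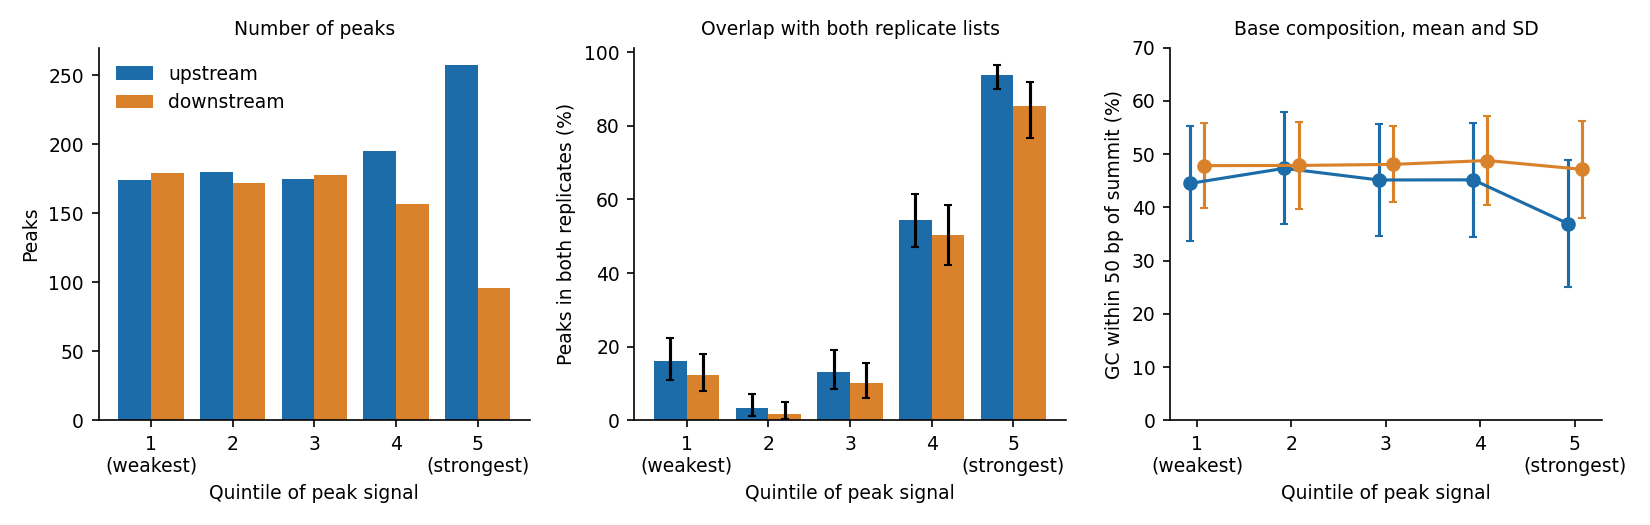
The 1763 peaks in quintiles of signal, split by side of the TSS: the number of peaks (left), the share that overlaps a thresholded peak of both replicates with exact 95% intervals (middle), and GC content within 50 bp of the summit as mean and SD (right). The strongest quintile holds 257 upstream and 96 downstream peaks, and its upstream peaks average 37.0% GC.

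The strongest upstream peaks lay at genes of varied function. At Ugalt, whose product carries UDP-galactose across the Golgi membrane, the summit 40 bp upstream of the first TSS reached 1503 in the series list, with 756 and 760 in the ranked lists of replicates 1 and 2. CG14100 had 1342 in the series list at 86 bp upstream, with 657 and 691 in the replicates. At mRpL41, of the mitochondrial ribosome, the signal was 1253 in the series list at 125 bp upstream, with 612 and 641 in the replicates. These were the 3 highest signals among the 1763 peaks. The gene eIF6, which encodes a translation factor, had 880 in the series list at 112 bp upstream, and 444 and 438 in the replicates. CG18549 had 713 at 119 bp upstream, and 404 and 310 in the replicates.

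Both TSSs of rib itself had peaks among the 8 strongest upstream. The summit 193 bp upstream of the second TSS had a signal of 1049 in the series list, with 690 in replicate 1 and 335 in replicate 2. That 253 bp upstream of the first TSS had 715, with 446 in replicate 1 and 243 in replicate 2. Both peaks were in the thresholded lists of both replicates. The insertion targets rib, and sequence of this region carried by the transgene and the resident copy cannot be told apart. Only 4 of the 1763 peaks lay within 20 kb of rib.

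The strongest downstream peak was that of caps, a gene for a leucine-rich repeat protein of the cell surface. Its summit lay 76 bp after the TSS, with a signal of 750 (465 in replicate 1 and 258 in replicate 2). It was followed by PNPase, a mitochondrial RNA-degrading enzyme, at 82 bp downstream of an internal TSS (732, with 370 and 379 in the replicates). GstE13, a glutathione transferase gene, had 573 at 89 bp downstream (298 and 294). The remaining 5 of the 8 strongest were at ph-p (440), Cipc (421), CG18622 (406), KrT95D (404) and TRAM, of the protein translocation channel (373). All 8 lay in 5′ UTRs and overlapped peaks of both replicates.

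At genes with several TSSs, most peaks and most TSSs were internal. Of 1089 peaks at such genes, 400 had the first TSS as the nearest (36.7%, exact interval 33.9% to 39.7%) and 689 an internal one. First TSSs were 33.6% of the TSSs of these genes that lie in single-gene sequence, and 32.6% of the bases. Of the 689, 553 lay more than 500 bp from the first TSS. No difference in strength or replicate overlap between peaks at first and at internal TSSs was detectable. The median signal was 95.7 at first TSSs and 95.9 at internal ones. Both replicates were overlapped by 36.5% and 36.1%, a difference of 0.36 points (−5.49 to 6.32).

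The position of the summit was set beside the sequence available on each side. First TSSs had 193 summits per Mb upstream and 244 downstream, while internal TSSs had 261 upstream and 124 downstream. Each base went to its nearest TSS, which cuts away sequence between the TSSs of a gene. Downstream of first TSSs it fell from 112929 bases at 0 to 49 bp to 61797 at 450 to 500 bp. Upstream of internal TSSs it fell from 222047 bases at −50 to −1 bp to 114895 at −500 to −451 bp. The part of this in the densities of whole sides was not tested. The highest bin of 100 bp was that from 0 to 99 bp at first TSSs, with 557 summits per Mb, and that from −200 to −101 bp at internal TSSs, with 376 per Mb. Of summits at first TSSs 52.5% were upstream, against 58.5% at internal TSSs, a difference of −5.99 points whose interval includes 0 (−12.1 to 0.12). Sequence upstream of an internal TSS often lies in an intron: 388 of the 689 summits there were intronic, against 38 of 400 at first TSSs.

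The strongest peaks at internal TSSs more than 500 bp from the first were those of rib (1049), ph-p, a Polycomb group gene (907), PNPase (732), CG1888 (657), px, which patterns wing veins (641), and Fkbp14, a prolyl isomerase of the ER (628). The summit at px lay 202 bp upstream of the third TSS of the gene and 47764 bp from the first, with 357 in replicate 1 and 273 in replicate 2.

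In 1010 genes the first TSS and at least 1 internal TSS over 1000 bp away could both be scored. A peak lay at the first TSS alone in 159, at internal TSSs alone in 142, at both in 51 and at neither in 658. Per TSS, 20.8% of first TSSs (exact interval 18.3% to 23.4%) and 15.9% of the 1762 internal TSSs (14.3% to 17.7%) had a peak. With the 489 genes that have exactly 2 TSSs, so that each side had the same number, 18.6% of first (15.3% to 22.3%) and 10.6% of internal TSSs (8.04% to 13.7%) had one. A peak at the first TSS was present in 26.4% of genes with a peak at an internal TSS and in 19.5% of genes without. In 18 of the 51 genes with both, the first TSS had the stronger peak.

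The 4 genes with the strongest such pairs were rib, ph-p, jim and Syx4. In ph-p the summit of 440 lay 459 bp downstream of its first TSS, with 222 and 236 in the replicates, and that of 907 lay 491 bp upstream of its second, with 457 and 477. In jim, a zinc finger gene, the first TSS had 248 and the internal one 404, and the peak at the first overlapped a peak of replicate 2 but none of replicate 1. Syx4, a SNARE of the plasma membrane, had 169 at its first TSS and 188 at its internal one. Each summit of these pairs other than that of ph-p at its first TSS was upstream.

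Some genes held several peaks: 1150 genes had 1, 210 had 2 and 59 had 3 or more. The most were at shn, a transcription factor of the Dpp pathway, with 6 peaks at 4 internal TSSs (signals 75.1 to 120) and none at its first. Of these 6 peaks, 2 were in both replicates. Hnf4 had 5 (3.92 to 198), and Rtnl1, which shapes the ER, had 4 (74.9 to 338), all 226 to 277 bp upstream of different internal TSSs. The gene dnc, a cAMP phosphodiesterase, had 4 (25.6 to 268), all upstream. Neighbouring summits such as the pair at the second TSS of dnc share 1 region in each replicate list, so they are not separate evidence.

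Genes with 1 TSS had a peak less often than genes with several. Of 10449 genes with at least 1 TSS in single-gene sequence, 1372 had a peak, or 13.1%. The share was 7.94% of 7369 genes with 1 TSS (exact interval 7.33% to 8.58%) and 25.6% of 3080 with several (24.0% to 27.1%), a difference of −17.6 points (−19.3 to −16.0). It was 18.7% with 2 TSSs, 30.8% with 3, 44.9% with 4 and 55.0% with 5 or more. These genes also have more sequence in which a summit counts, 0.954 kb per gene with 1 TSS and 4.42 kb with 5 or more. Per megabase there were 90.7 peaks at genes with 1 TSS and 165, 198, 238 and 242 at genes with 2, 3, 4 and 5 or more.

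With 1 TSS taken per gene and the same 500 bp on each side, 492 of 6133 only TSSs (8.02%) and 353 of 1947 first TSSs of genes with several (18.1%) had a peak, a difference of −10.1 points (−12.0 to −8.32). Genes with several TSSs are also longer, with medians of 1.70 kb and 6.11 kb. In genes up to 2 kb long 3.56% of only TSSs (2.96% to 4.23%) and 10.4% of first TSSs (7.24% to 14.4%) had a peak, and at 2 to 5 kb 9.71% and 15.3%. Above 5 kb the shares were close, at 20.5% and 22.8% for 5 to 10 kb, 18.8% and 21.8% for 10 to 20 kb and 18.5% and 20.04% over 20 kb, with overlapping intervals. Among only TSSs, the share was thus 3.56% in the shortest class and between 18.5% and 20.5% in the 3 classes above 5 kb. Once present, peaks at genes with 1 TSS were in both replicates in 31.6% and at genes with several in 36.3%, a difference of −4.67 points (−9.14 to −0.10).

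**Figure D3:**
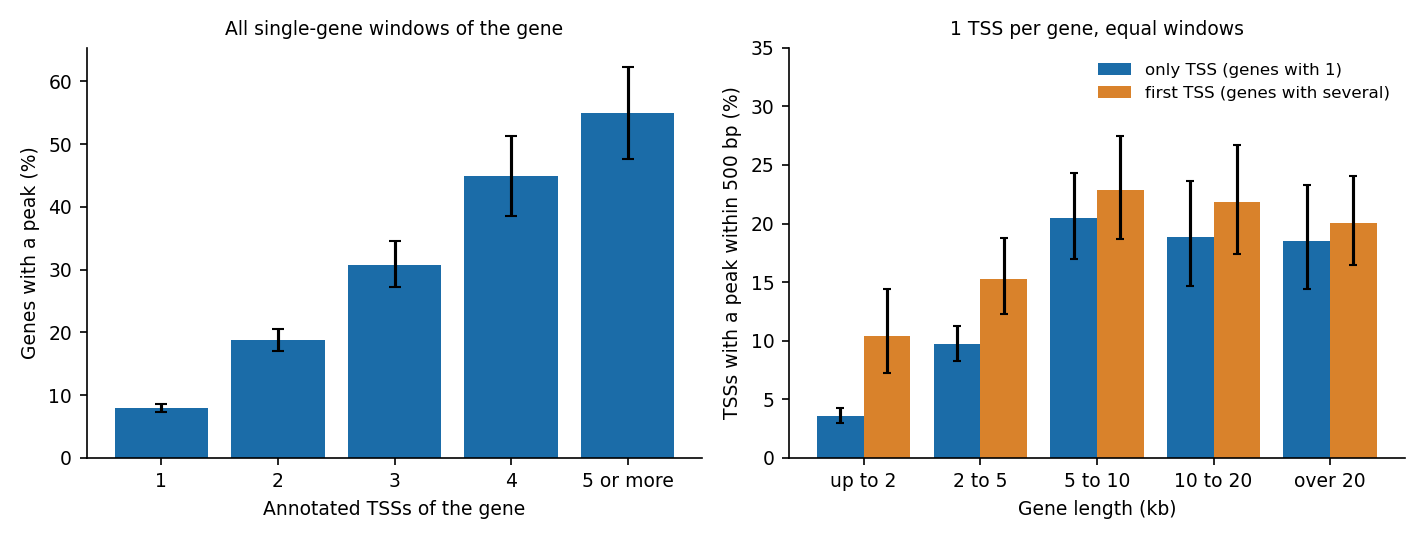
Left, the share of genes with a peak by number of annotated TSSs; right, the share of TSSs with a peak within 500 bp, with 1 TSS per gene and equal windows, by gene length in kb. Bars are exact 95% intervals; the 2 kinds of TSS differ most in genes up to 2 kb and have overlapping intervals above 5 kb.

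Several motifs of both promoter kinds were more frequent at summits than at TSSs without a peak. For 13 motifs, the share of summits with a match on either strand within 50 bp was set beside the share at the same offsets from 8064 genes without a peak. The GAGA site (GAGAG) was present at 23.5% of upstream summits (exact interval 20.9% to 26.3%) against 13.4% without a peak, and at 19.2% of downstream summits (16.5% to 22.1%) against 11.5%. By TSS it was present at 18.5% of summits at first and 26.6% at internal TSSs, against 12.7% and 12.5%. The upstream excess rested on replicate 1, whose own list had 25.9%, while that of replicate 2 had 14.9%. Downstream the lists had 19.5% and 20.8%. Upstream peaks with the site were in both replicates in 30.3% and those without it in 44.5%.

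The DRE (TATCGATA) was present at 4.18% of upstream summits (3.02% to 5.63%) against 1.58% without a peak, and at 0.767% of downstream summits (0.282% to 1.66%) against 0.745%. It was found at 4.90% of summits of genes with 1 TSS (3.39% to 6.81%) and at 1.29% of those of genes with several (0.705% to 2.15%), against 1.28% and 1.16%. In the replicates' own lists the upstream share was 4.15% in replicate 1 (2.80% to 5.90%) and 2.58% in replicate 2 (1.42% to 4.29%). The interval of replicate 2 includes the 1.58% without a peak. Ohler motif 7 (CAGCNCTA, CAGCNCTG, CATCNCTA or CATCNCTG) was at 10.3% of upstream summits (8.46% to 12.4%) against 4.09%, and at 4.60% of downstream summits (3.24% to 6.32%) against 4.01%. The upstream share was 9.87% in the list of replicate 1 and 9.02% in that of replicate 2.

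The word CGTGT stood for the downstream promoter element. A match on either strand anywhere within 50 bp of the summit counted, so the shares are of the word and not of placed elements. The word was at 21.2% of downstream summits (18.4% to 24.3%) against 13.02%, and at 23.2% and 15.9% in the lists of replicates 1 and 2. Upstream it was at 14.4% of summits (12.2% to 16.7%) against 10.2%. Without replicate 1 the upstream difference of 4.17 points was 0.85 and the downstream difference of 8.21 points was 2.89. Its complement overlaps repeats of CA such as those printed above. The TATA box (TATAAA) was less frequent at summits than at TSSs without a peak, with 12.7% against 18.2% upstream and 6.39% against 10.3% downstream. In the list of replicate 1 its upstream share was 12.02%. In that of replicate 2 it was 16.8% (13.7% to 20.2%), an interval that includes the share without a peak. The initiator (TCAGT) was at 23.8% of downstream summits against 23.2%. The DRE core (ATCGAT, which the DRE contains) was at 9.89% of upstream summits against 5.66%, the core of Ohler motif 1 (GGTCACAC) at 1.73% against 0.919% and the E-box CACGTG at 2.24% against 1.13%, while the intervals of their downstream shares included the share without a peak. In the list of replicate 2 alone the upstream shares were 7.18% for the DRE core (5.16% to 9.69%) and 1.66% each for the core of Ohler motif 1 and CACGTG (0.761% to 3.12%), with intervals that include the share without a peak. In that of replicate 1 they were 10.01% (7.89% to 12.5%), 1.57% (0.788% to 2.80%) and 2.29% (1.31% to 3.69%). For the E-box CAGCTG, the Zelda site (CAGGTAG), Ohler motif 6 and the initiator of ribosomal protein genes they did so on both sides.

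**Figure D4:**
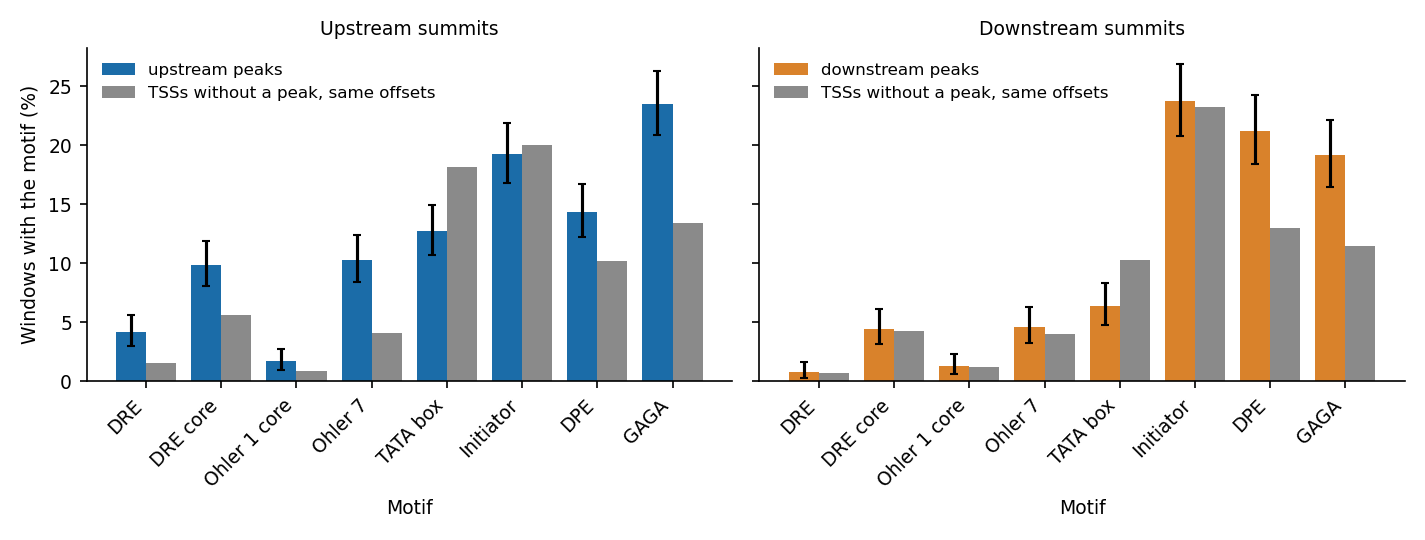
Share of summits with 8 motifs within 50 bp (coloured bars, exact 95% intervals) and share at the same offsets from TSSs without a peak (grey), for upstream summits on the left and downstream summits on the right. Upstream bars exceed grey ones for the DRE, Ohler motif 7 and GAGA, and fall below for the TATA box. Bars named DPE count the word CGTGT.

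Among 7-base words, the 6 with the largest excess upstream were CTCTCTC (7.85% against 2.57%), ATCGATA (8.46% against 3.76%), CTCGCTC (6.12% against 1.59%), AGAGAGA (6.73% against 2.41%), ACTATCG (5.50% against 1.30%) and AGCGAGA (5.30% against 1.46%). They overlap the GAGA site or the DRE in part. Downstream they were CACACAC (9.72% against 3.20%), GCGAAAA (8.95% against 3.21%), ACACACA (8.95% against 3.38%), GCACACA (7.80% against 2.67%), CGCTCGC (6.65% against 1.53%) and CGCACAC (6.78% against 1.92%). The words ATCGATA and ACTATCG were rare downstream, with 1.79% and 1.02%. CTCTCTC was at 2.75% of summits at first TSSs (1.38% to 4.87%) and at 8.56% at internal TSSs (6.58% to 10.9%). Its shares at the same offsets from TSSs without a peak were not counted for these 2 groups. Upstream peaks with CTCTCTC were in both replicates in 26.0% and those without it in 42.5%. The words were not counted in each replicate's own list. For the words, too, base composition was not matched, and its part in their excess on either side was not tested.

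The GAGA site and the DRE core were counted separately in the strongest upstream summits that were rich in A and T. Of the 130 peaks of the strongest quintile upstream with GC content under 35%, 10 (7.69%) held the GAGA site and 3 the DRE core, and their median summit was at −166.5 bp. Of the other 127 in that quintile, 33 (26.0%) held the GAGA site and 13 the DRE core, with a median summit at −126 bp. Nearly all were in the list of each replicate: 128 in replicate 1 and 127 in replicate 2 of the 130, and 124 and 119 of the 127. The limit of 35% was chosen after the values were seen, and the part of base composition in these counts was not tested.

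Several groups of regulators, cytoplasmic ribosomal protein genes and glycolysis genes had a peak more often than the 13.1% of all genes, and cuticle, chemosensory and oxidative phosphorylation genes less often. For each of 17 lists, genes with a single-gene promoter peak were counted among those with a TSS in single-gene sequence. The exact interval of the share was wholly above 13.1% in 9 lists, wholly below it in 3 and around it in 5. BTB transcription factors had 11 of 16, with 13 of their 20 peaks at internal TSSs more than 500 bp from the first. After rib, Trl had the strongest (284, 140 bp downstream of the fourth TSS of the gene, with 148 and 125 in the replicates). Genes of the ecdysone response had 8 of 13. Eip75B, a nuclear receptor gene, had 223 and Eip74EF, an ETS factor gene, 138, both at internal TSSs. Components of Notch, Wnt, Dpp and EGF signalling had 16 of 29, led by the kinase gene sgg (171) and the metalloprotease gene kuz (152). Genes of the cytoskeleton and cell polarity had 15 of 28, led by betaTub56D, a tubulin (186), and dlg1, a scaffold of cell junctions (171).

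Tracheal genes had 14 of 32 (6 of 15 with 1 TSS and 8 of 17 with several), led by sd (154) and crb, which sets the apical membrane (146). Salivary gland genes had 6 of 16, led by rib and the forkhead gene fkh (215), with an interval of 15.2% to 64.6%. Without rib, whose locus the insertion targets, it was 5 of 15 (11.8% to 61.6%), an interval around 13.1%, while BTB transcription factors without rib were 10 of 15 (38.4% to 88.2%). Leaving rib out was tried after the values were seen. Homeotic and segmentation genes had 6 of 26, with an interval around 13.1% (8.97% to 43.6%), led by opa (132) and wg (105). All 7 of their peaks were upstream, and 1 of the 7 was in both replicates.

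Among genes used in every cell, cytoplasmic ribosomal protein genes had 28 of 55 (12 of 25 with 1 TSS and 16 of 30 with several). Their 30 peaks were split evenly, 15 upstream and 15 downstream, and none was at an internal TSS more than 500 bp from the first. RpL23A had the highest (230, with 95.7 and 135 in the replicates), and RpS28b had 172. Glycolysis genes had 5 of 10 (exact interval 18.7% to 81.3%), led by Gapdh2 (602) and Eno (321). Translation factors had 11 of 37, led by eIF6 and pAbp (274), and chaperones 5 of 26, led by Hsp27 (280) and Hsp83 (157). The counts were 3 of 26 for the proteasome (Prosalpha3 74.2 and Rpn12 72.0), 2 of 19 for the mitochondrial ribosome (mRpL41 and mRpL40, 71.2), 1 of 13 for aminoacyl-tRNA synthetases (AspRS-m, 99.8) and 1 of 51 for oxidative phosphorylation. The last was UQCR-14 (87.9) by TSSs in single-gene sequence, while a further peak lay at ATPsyngamma (77.3), none of whose TSSs does. The peaks at Prosalpha3, Rpn12, mRpL40, AspRS-m and ATPsyngamma overlapped no thresholded peak of either replicate.

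Of cuticle proteins 1 of 92 had a peak (Cpr47Eg, 72.8), and of chemosensory receptors 0 of 160, which allows a share of up to 2.28% (exact interval). The share of genes with several TSSs differs between lists. It runs from 5.26% of the mitochondrial ribosome and 6.88% of the chemosensory list to 84.6% of the ecdysone list and 90% of glycolysis. Over all genes, 7.94% with 1 TSS and 25.6% with several had a peak. The counts with 1 TSS and with several were 3 of 4 and 8 of 12 for BTB factors. They were 1 of 2 and 7 of 11 for ecdysone genes and 7 of 14 and 9 of 15 for signalling. The cytoskeleton list had 4 of 11 and 11 of 17, and translation factors 4 of 22 and 7 of 15. The salivary gland list had 1 of 7 and 5 of 9, and glycolysis 0 of 1 and 5 of 9. The part of the number of TSSs in the lists' shares was not tested. Of all 1763 peaks 34.5% were in both replicates. Among lists above the share of all genes, peaks in both were 6 of 24 for signalling, 5 of 18 for tracheal and 5 of 16 for ecdysone genes. They were 11 of 29 for the cytoskeleton, 13 of 30 for cytoplasmic ribosomal proteins and 10 of 20 for BTB factors. They were 9 of 16 for translation factors, 7 of 10 for the salivary gland and 5 of 6 for glycolysis. The lists' shares in each replicate were not counted.

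**Figure D5:**
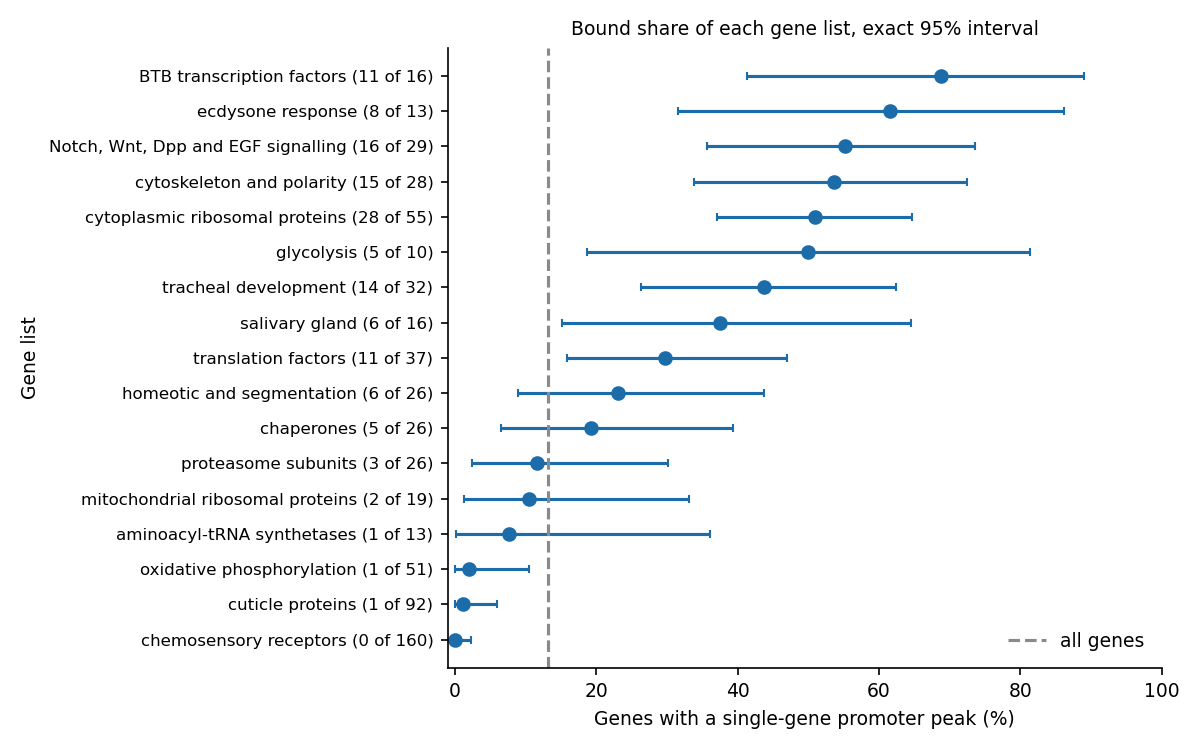
Share of each list's genes with a single-gene promoter peak (%), with exact 95% intervals, and the share over all 10449 genes as a dashed line. The signalling, BTB, ecdysone and cytoplasmic ribosomal protein lists lie to the right of the line, and oxidative phosphorylation, cuticle and chemosensory lists to the left.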

How the data were processed

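The authors deposited ranked regions and thresholded peaks by irreproducible discovery rate (IDR), per replicate and for both together, on dm6, per the labels. The signal in the deposited lists comes from the peak caller, and the deposited score is a whole number rescaled from the IDR, with 830 as the lowest in the thresholded list. The tools of alignment and calling were not given in the sources used here, nor was depth. Intervals cover counting error only.

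Summits were moved to count from 1 and assigned with Ensembl release 115 (BDGP6) to TSSs of protein-coding genes on the Release 6 assembly. Shares have exact (Clopper-Pearson) 95% intervals and differences Newcombe intervals; peaks are not replicates, so no p was computed. Each replicate's own list was set beside the series list. Overlap was at least 1 bp. Genes were scored when a TSS lay in sequence within 500 bp of TSSs of that gene alone; 47 bound genes had no such TSS. Motifs were set against genes without a summit within 500 bp, weighted to the same offsets in bins of 20 bp. On simulated positions, 2000 of 2000 summits at only TSSs, 500 of 500 at internal TSSs and 200 of 200 planted words were recovered. Python 3.11.15, numpy 2.4.6, scipy 1.17.1, pandas 2.3.3 and matplotlib 3.10.9 were used.

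The members, gene lists and motifs were chosen with earlier results of these data known. Named are the 8 strongest upstream and downstream peaks, the 6 strongest at far internal TSSs, the 4 genes with most peaks, the 4 strongest pairs of TSSs, the 2 strongest genes of each list, rib, the 6 leading words of each side, and the 3 strongest peaks with the leading word. The sequences with the DRE or GCGAAAA and those of the strongest summits were added after the values were seen. One of the downstream peaks with the leading word is not reported here, and sequences of arm 2R are not shown.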

Additional observations from a re-analysis of the deposited data

How the results depend on the processing

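The share of peaks at single-gene promoters (38.3%) was 39.8% in the stronger 50% of peaks, 34.5% and 41.4% with windows of 200 and 1000 bp, 35.8% with noncoding genes counted, and 37.0% and 41.0% in the lists of replicates 2 and 1 (without the other replicate). The upstream share (55.6%) was 60.6% in the stronger 50%, and 67.3% without replicate 1 and 55.3% without replicate 2. The first TSS share (36.7%) was 41.7% and 33.4% with windows of 200 and 1000 bp. Genes with 1 TSS that had a peak (7.94%) were 6.76% in the conservative list, 4.44% in the stronger 50% and 6.66% with a window of 200 bp, and 3.68% without replicate 1 and 5.48% without replicate 2. Genes with several (25.6%) were 23.5%, 16.1% and 22.5% under the same settings, and 14.3% without replicate 1 and 20.2% without replicate 2. The share was below that of genes with several TSSs in each of these. Downstream peaks above the median signal (44.1%) were 38.0% in the stronger 50%, 35.2% without replicate 1 and 44.0% without replicate 2. Overlap with both replicates (34.5%) was 27.1% when 50% of each peak had to overlap. Dropping weak peaks (signal under 20) or those within 20 kb of rib, both tried after the values were seen, moved none of these beyond their counting interval.

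A motif difference counted as moved when it left the counting interval of its main value. For 13 motifs on 2 sides, a window of 100 bp moved 9 of 26 differences from TSSs without a peak. Leaving out replicate 2 moved 0. Leaving out replicate 1 moved 9, and 1 more, the downstream initiator, left its interval with a changed sign. Sign changes inside the interval were not counted, such as that of the downstream DRE core, 0.22 points and −0.85 without replicate 1. The GAGA difference upstream was 10.1 points, and 1.47 without replicate 1. The downstream initiator difference of 0.54 points was −3.16 without replicate 1 and 0.52 without replicate 2. The causes were not tested.

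No paired analysis was possible because there is 1 group. The series list leaves out 172 ranked regions that pass its score, 66 of which would have been single-gene promoter peaks. Of the 1763, 113 also had the start of a noncoding gene within 500 bp, and 111 had a signal under 22.0, the median of the ranked list.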
